A study of Mus musculus with 64 samples.

Results

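The CC chemokines followed here in retinal microglia were *Ccl2*, *Ccl3*, *Ccl4*, *Ccl5*, *Ccl6*, *Ccl7*, *Ccl8*, *Ccl9* and *Ccl12*. They were taken by symbol and are 9 of the 25239 genes in the counts that the authors had corrected for collection day. All 9 passed the filter on low counts in every day comparison. Retinal microglia were sorted as tdTomato-bright live cells, 600 cells per library and 1 retina per library, at 3, 9 and 18 months of age, in both sexes. The mice were Cx3cr1CreER:R26-tdTomato +/-, and their strain was C57BL/6J. Treated eyes had received AAV2 with no transgene by intravitreal injection (IVT) at 1E10 genome copies per eye. By the study's methods the vector also carried an oligonucleotide sequence that inhibits TLR9, an immune sensor of viral DNA. Treated eyes were collected at day 12 or day 28. Naive eyes were not injected, so that injection and virus cannot be told apart in these libraries. All mice carried the same Cre and reporter alleles and had received tamoxifen as eye drops, followed by a washout. The study's methods state that this procedure made the labelling more specific to microglia. *Cx3cr1* drives this Cre in other mononuclear phagocytes as well as in microglia.

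In females, the naive, day 12 and day 28 groups held 4, 4 and 4 libraries at 3 months, 3, 3 and 4 at 9 months, and 3, 4 and 3 at 18 months. In males they held 3, 4 and 3 libraries at 3 months, 2, 4 and 3 at 9 months, and 4, 3 and 4 at 18 months. Counted reads per library ranged from 1468478 to 9836173 (median 4188992), and 3 counts, taken as the floor, corresponded to 0.365 to 2.1 CPM (counts scaled to a common library size, as edgeR's cpm gives them). By the study's methods 1 eye of a mouse went to sorting and the fellow eye to other assays, so that libraries stand for separate mice. Replicate 1 of the 18-month-old day 28 females, as labelled, had *Xist* at 0 CPM and Y-linked transcripts at 388 CPM and was left out. Replicate 1 of the 9-month-old day 28 males, also not used here, showed the reverse (*Xist* 255 CPM, Y-linked 0 CPM), and whether these 2 libraries were exchanged was not tested. In addition, 1 library of 18-month-old males carried a day 28 title and a day 12 time point and was kept at day 28. In bulk libraries fewer cells of a type and less RNA per cell cannot be told apart.

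CC chemokines are small secreted proteins that bind G protein-coupled receptors and draw leukocytes along a gradient. *Ccl2*, *Ccl7* and *Ccl12* encode ligands of Ccr2, the receptor of inflammatory monocytes, and *Ccl8*, of the same monocyte chemoattractant group, encodes a ligand of Ccr8 in the mouse. *Ccl3*, *Ccl4* and *Ccl5* encode inflammatory chemokines that attract T cells and myeloid cells, and *Ccl6* and *Ccl9* encode mouse ligands of Ccr1. Microglia, the resident macrophages of the retina, are among the main sources of several of them in neural tissue.

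All 9 genes lie on chromosome 11 (GRCm38, the assembly that mm10 names), in 2 runs. *Ccl2* (82035571 to 82037453), *Ccl7* (82045712 to 82047525), *Ccl12* (82101845 to 82103400) and *Ccl8* (82115185 to 82116799) follow each other on the plus strand. Farther along lie *Ccl5* (83525778 to 83530518), *Ccl9* (83572919 to 83578636), *Ccl6* (83587882 to 83593087) and *Ccl3* (83647844 to 83649355) on the minus strand and *Ccl4* (83662584 to 83664683) on the plus strand. The strand setting of the counting is not given in the sources used here, and reads shared by close copies or by transcripts on opposite strands could be split between members.

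RefSeq promoter windows (GRCm38.p6, 300 bases, from 250 bases before to 50 after the start site) were matched for 5 of the 9 members. The windows of *Ccl8* and *Ccl12*, neighbours that were higher after injection, and of *Ccl6* and *Ccl9*, neighbours that were lower, are printed 5′ to 3′ so that the 2 pairs can be compared, with any motif match in capitals.
Ccl8 promoter, chr11:82114935-82115234, plus strand: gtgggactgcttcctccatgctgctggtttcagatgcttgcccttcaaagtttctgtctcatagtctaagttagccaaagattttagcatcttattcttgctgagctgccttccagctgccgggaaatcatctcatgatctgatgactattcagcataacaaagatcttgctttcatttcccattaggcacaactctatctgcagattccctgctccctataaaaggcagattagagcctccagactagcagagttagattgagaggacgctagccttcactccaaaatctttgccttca
Ccl12 promoter, chr11:82101595-82101894, plus strand: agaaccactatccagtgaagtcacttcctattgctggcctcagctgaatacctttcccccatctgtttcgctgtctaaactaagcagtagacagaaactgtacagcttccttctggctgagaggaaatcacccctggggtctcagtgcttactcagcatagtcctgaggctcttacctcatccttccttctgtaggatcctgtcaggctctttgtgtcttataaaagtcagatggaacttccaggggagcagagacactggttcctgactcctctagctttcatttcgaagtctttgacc
Ccl6 promoter, chr11:83593038-83593337, minus strand: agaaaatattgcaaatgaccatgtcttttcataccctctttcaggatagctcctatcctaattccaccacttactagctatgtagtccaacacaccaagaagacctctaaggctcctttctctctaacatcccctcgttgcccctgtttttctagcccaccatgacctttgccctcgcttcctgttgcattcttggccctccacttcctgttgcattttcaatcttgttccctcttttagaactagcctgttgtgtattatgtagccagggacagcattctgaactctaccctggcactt
Ccl9 promoter, chr11:83578587-83578886, minus strand: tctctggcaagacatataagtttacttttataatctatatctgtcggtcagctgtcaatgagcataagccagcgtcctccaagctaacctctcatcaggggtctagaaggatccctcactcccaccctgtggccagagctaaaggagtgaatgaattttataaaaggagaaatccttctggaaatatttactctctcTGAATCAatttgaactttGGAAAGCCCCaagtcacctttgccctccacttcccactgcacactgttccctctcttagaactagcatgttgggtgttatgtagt
Both strands were searched for 4 motifs. The core of the interferon-stimulated response element (GAAANNGAA) was present in 8.56% of all 32851 promoters, the gamma-activated site (TTCNNNGAA) in 8.3%, the AP-1 site (TGANTCA) in 7.81% and the kappa B site in 4.51%. The *Ccl8*, *Ccl12* and *Ccl6* windows held none of the 4 letter strings. The *Ccl9* window held 1 AP-1 match about 50 bases and 1 kappa B match about 30 bases before the start site, which do not overlap each other. The *Ccl3* window, matched but not printed, held 1 interferon-stimulated response element core about 35 bases before the start site. *Ccl6* and *Ccl9* shared a run of 13 bases (gccctccacttcc), and the longest run shared by any other pair of the 5 windows was 11 bases.

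Levels were first compared between genes as CPM per kilobase of exon. In naive microglia *Ccl12* had the highest median of the 9, at 2380 CPM per kilobase over 19 libraries. It was followed by *Ccl6* at 514, *Ccl4* at 284, *Ccl3* at 253, *Ccl9* at 109, *Ccl5* at 97.9, *Ccl2* at 39.1, *Ccl8* at 4.11 and *Ccl7* at 3.75. At day 12 *Ccl12* was still first at 5750, and *Ccl5* at 2520 and *Ccl8* at 1080 stood next, while *Ccl6* at 121 and *Ccl9* at 22.4 were the lowest of the 9. At day 28 *Ccl12* was at 6880 and *Ccl8* was second at 487. The ranges of neighbours in each order overlapped, except *Ccl12* and *Ccl8* at day 28 (2280 to 17800 against 28.8 to 1240).

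**Figure D1:**
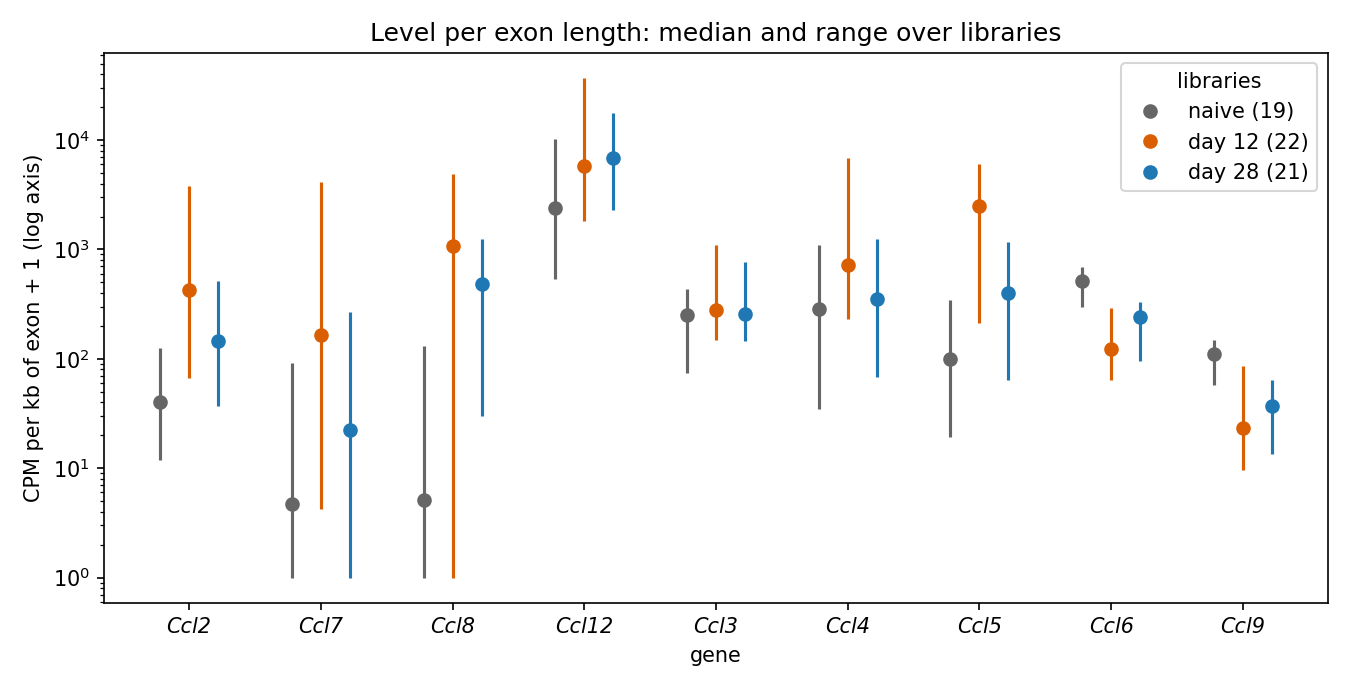
Level of each CC chemokine in CPM per kilobase of exon plus 1 (vertical log axis) for naive (19 libraries), day 12 (22) and day 28 (21) microglia. Points are medians and lines run from the lowest to the highest library. Ccl12 has the highest median at each time (2380, 5750 and 6880), and Ccl8 goes from 4.11 in naive to 1080 at day 12 and 487 at day 28.

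Day 12 was compared with naive within each age and sex to ask which chemokines differ early after injection. *Ccl8*, *Ccl5*, *Ccl2* and *Ccl7* rose and *Ccl6* and *Ccl9* fell, in 3 or 4 of the 6 age-sex groups each. A gene was called when the adjusted p of edgeR's glmTreat against an absolute log2 fold change of 1 was under 0.05. The members called were 4 of 9 in 3-month-old females (2.36% of all genes tested were called there), 5 in 3-month-old males (3.65%), 5 in 9-month-old females (2.57%), 0 in 9-month-old males (0.765%), 0 in 18-month-old females (0%) and 6 in 18-month-old males (4.04%). In all, 20 of 54 values were called. The median log2 fold change of the members was 1.15, 1.22, 2.13, 2.31, 1.56 and 2.36 in that order, beside medians of all genes between -0.01 and 0.11. At an unadjusted p under 0.05, 6 members of 9-month-old males passed, beside 838 of 11630 genes. In 18-month-old females 4 passed, beside 481 of 11159 genes. DESeq2 called 1 and 0 there. Its counts here and below are given without its share of all genes, so that no excess among the members is read from them.

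**Figure D2:**
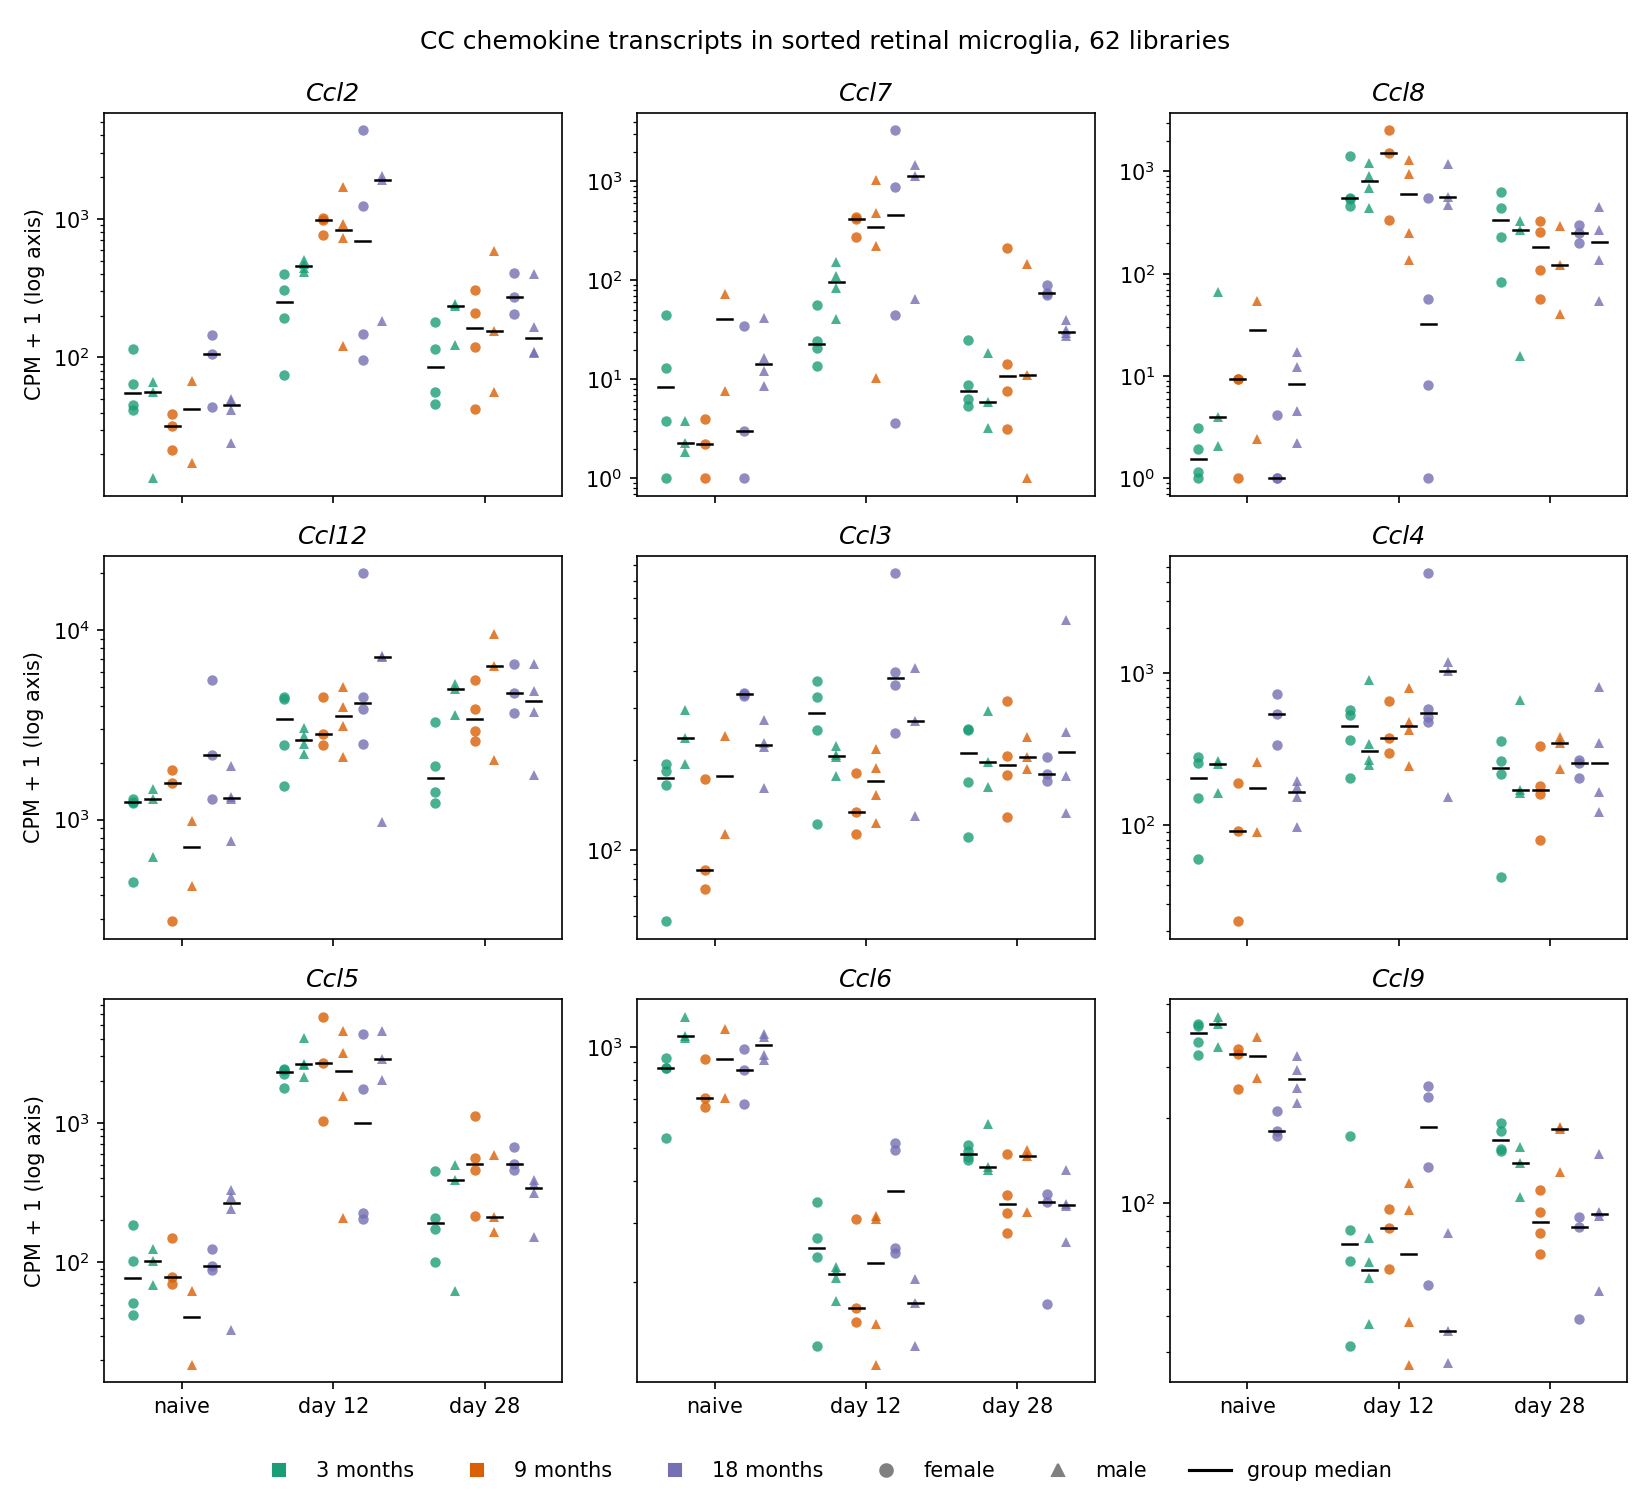
CPM plus 1 (vertical log axis, scaled per gene) of each CC chemokine in the 62 libraries, by day, with colour for age, circles for females, triangles for males and black bars for group medians. Ccl8 is at or below 65.8 CPM in naive libraries and reaches 2520 CPM at day 12, and all Ccl6 values at day 12 (113 to 518 CPM) are below the naive values (535 to 1230 CPM).

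*Ccl8*, whose product acts on Ccr8 in the mouse, was nearly absent from naive libraries. In 3-month-old females naive libraries held 0, 0.145, 0.926 and 2.1 CPM, and day 12 libraries held 463, 537, 551 and 1430 CPM. The groups were far apart, with a log2 fold change of 9.91 ± 1.02 (SE, adjusted p = 0.000314). Naive libraries of 9-month-old females held 0, 8.38 and 8.41 CPM and day 12 libraries 334, 1500 and 2520 CPM (8.05 ± 1.2, adjusted p = 0.00318). In 18-month-old males the naive values were 1.24, 3.54, 11.3 and 16.3 CPM and the day 12 values 473, 558 and 1170 CPM (6.49 ± 0.92, adjusted p = 0.0022). *Ccl8* thus rose in these 3 groups, with no overlap between naive and day 12 in any. In 3-month-old males naive values were 1.08, 2.95 and 65.8 CPM against 437, 696, 902 and 1210 CPM (5.06 ± 1.54, adjusted p = 0.264), and in 9-month-old males 1.41 and 53.3 CPM against 136, 248, 949 and 1300 CPM (4.58 ± 1.68, adjusted p = 0.533). Neither of these passed, although the groups did not overlap and 1 naive library in each was high.

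*Ccl2*, a ligand of Ccr2, had a naive range of 12.4 to 144 CPM (median 44.5) and a day 12 range of 74.2 to 4340 CPM (median 486). It rose in 3-month-old males from 12.4, 55.7 and 65.6 CPM to 415, 438, 473 and 500 CPM (log2 fold change 3.35 ± 0.49, adjusted p = 0.00519). In 9-month-old females 20.6, 31 and 38 CPM became 760, 976 and 1020 CPM (4.94 ± 0.59, adjusted p = 0.000398). In 18-month-old males the naive values of 23.1, 40.8, 47.4 and 49.3 CPM stood against 181, 1910 and 2030 CPM (5.11 ± 0.8, adjusted p = 0.00453). Day 12 libraries lay close together in 3-month-old males, while 1 of 3 was far below the others in 18-month-old males. In 3-month-old females 40.8, 44.5, 63.4 and 113 CPM against 74.2, 191, 307 and 396 CPM overlapped (1.88 ± 0.55, adjusted p = 0.433).

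*Ccl7*, next to *Ccl2* on the chromosome and also a Ccr2 ligand, was low in naive libraries (median 3 CPM, highest 72.1). Some of those libraries were at or under the floor. *Ccl7* rose in the same 3 groups as *Ccl2*. Values in 3-month-old males were 0.844, 1.29 and 2.8 CPM for naive and 40, 82.3, 109 and 154 CPM for day 12 (5.76 ± 0.73, adjusted p = 0.000328). In 9-month-old females they were 0, 1.2 and 3 CPM against 273, 416 and 436 CPM (8.01 ± 1.81, adjusted p = 0.0496), and in 18-month-old males 7.67, 11.1, 15.6 and 41.1 CPM against 64.5, 1130 and 1460 CPM (5.53 ± 0.92, adjusted p = 0.00713). None of these groups overlapped. In 3-month-old females 0, 2.78, 11.9 and 43.4 CPM lay within or near 12.6, 19.6, 23.5 and 55.3 CPM (0.92 ± 1.08, adjusted p = 1).

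*Ccl12*, the most abundant member, was called at day 12 in 0 of 6 age-sex groups, with log2 fold changes of 1.22 to 2.31, all positive. In 3-month-old females naive libraries held 468, 1220, 1240 and 1290 CPM and day 12 libraries 1510, 2460, 4310 and 4420 CPM. The groups did not overlap there or in 3 of the other 5 age-sex groups, and the smallest adjusted p was 0.258, in 9-month-old males (2.31 ± 0.63).

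*Ccl5*, a ligand of Ccr1 also made by T and NK cells, rose in 4 groups. Naive libraries of 3-month-old females held 41.1, 50.5, 102 and 183 CPM, and day 12 libraries 1780, 2230, 2400 and 2430 CPM (4.53 ± 0.54, adjusted p = 0.00042). In 3-month-old males the values were 68, 102 and 124 CPM against 2130, 2590, 2630 and 4050 CPM (4.84 ± 0.75, adjusted p = 0.0126). Every day 12 library of either sex at this age was far above every naive one. In 9-month-old females 68.6, 77.5 and 148 CPM stood against 1020, 2670 and 5750 CPM (5.01 ± 0.71, adjusted p = 0.0021), and in 18-month-old males 31.6, 239, 291 and 329 CPM against 2010, 2870 and 4540 CPM (3.83 ± 0.62, adjusted p = 0.00541). Naive and day 12 values of *Ccl5* did not overlap in any of the 6 age-sex groups. The 9-month-old males, at 17.6 and 61.3 CPM against 206, 1540, 3160 and 4500 CPM, had a log2 fold change of 5.9 ± 1.27 with an adjusted p of 0.0791.

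*Ccl3* and *Ccl4*, neighbours on the chromosome that encode attractants of myeloid cells, were called in 0 of 6 age-sex groups at day 12. *Ccl3* ranged from 56.7 to 336 CPM (median 194) in naive, from 112 to 845 CPM (median 212) at day 12 and from 110 to 590 CPM (median 197) at day 28, with day 12 log2 fold changes from -0.26 to 0.82. The 3 ranges lay over each other. *Ccl4* had log2 fold changes of 0.97 to 2.36, with medians of 188 CPM in naive and 476 CPM at day 12. Only in 9-month-old females did its groups not overlap, at 22.1, 90.7 and 188 CPM against 296, 372 and 655 CPM (2.13 ± 0.65, adjusted p = 0.301). On uncorrected counts with collection day in the model *Ccl4* was called there by glmTreat (2.46, adjusted p = 0.0363). It was called in no group at day 12 under the other alternatives.

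*Ccl6* and *Ccl9*, the Ccr1 ligands, went the other way. *Ccl6* in 3-month-old males held 1060, 1080 and 1230 CPM in naive libraries and 175, 205, 215 and 221 CPM at day 12, a fall by 2.47 on the log2 scale (SE 0.16, adjusted p = 3.19e-07). In 18-month-old males 913, 948, 1070 and 1090 CPM became 128, 173 and 203 CPM (-2.57 ± 0.25, adjusted p = 4.88e-05), and in 3-month-old females 535, 863, 866 and 926 CPM became 128, 236, 269 and 345 CPM (-1.72 ± 0.25, adjusted p = 0.0378). Day 12 libraries lay close together in 3-month-old males and ranged from 113 to 313 CPM in 9-month-old males and from 244 to 518 CPM in 18-month-old females, and in all 6 age-sex groups every day 12 library was below every naive one. *Ccl9* fell in 4 groups, by 2.87 on the log2 scale in 3-month-old males (352, 427 and 452 CPM against 36.6, 53.4, 60.9 and 74.6 CPM, SE 0.21, adjusted p = 7.26e-07). Its log2 fold changes were -2.19 ± 0.33 in 3-month-old females (adjusted p = 0.00867), -2 ± 0.28 in 9-month-old females (adjusted p = 0.016) and -2.53 ± 0.39 in 18-month-old males (adjusted p = 0.00353). In 18-month-old females naive libraries held 171, 179 and 210 CPM and day 12 libraries 50.5, 133, 236 and 258 CPM, which overlapped (-0.13 ± 0.45, adjusted p = 1).

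For reading these counts, the share of all genes tested whose naive and day 12 groups did not overlap was 9.3%, 13.8%, 15.4%, 10.3%, 5.84% and 13.4% with day 12 higher, in the order of groups above, and 8.43%, 12.3%, 10.7%, 11.6%, 5.01% and 12.7% with day 12 lower.

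**Figure D3:**
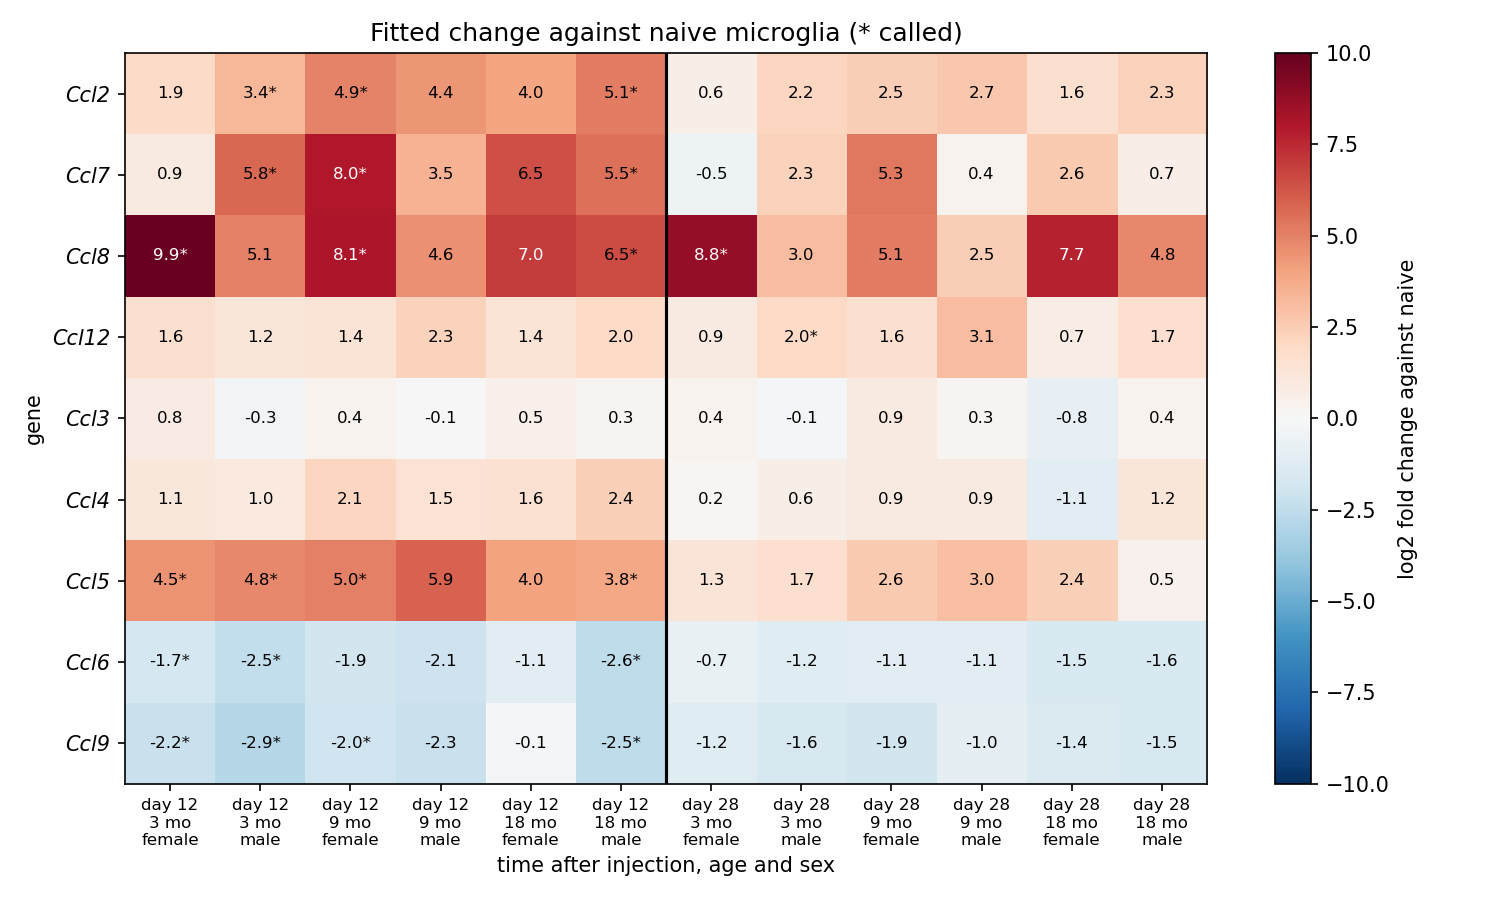
Fitted log2 fold change against naive (colour and printed value) for each CC chemokine, in 6 age-sex groups at day 12 (left) and 6 at day 28 (right), with an asterisk where the gene was called. Of the 12 columns the 3-month-old females have the largest Ccl8 values (9.91 at day 12 and 8.8 at day 28), and the Ccl6 and Ccl9 rows are negative in all 12.

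Several of these calls were lost when 1 library was left out, some of them whichever of several libraries it was, and no called value changed sign. Leaving out any 1 of the 3 naive libraries of 3-month-old males gave adjusted p-values of 0.0658 to 0.0713 for *Ccl5*. Its log2 fold changes there were 4.65 to 5.05. Leaving out their day 12 replicate 2 gave an adjusted p of 0.0501 for *Ccl2*. In 9-month-old females the *Ccl7* call was lost without any 1 of the 3 naive or 3 day 12 libraries (adjusted p 0.1 to 0.313), and the *Ccl9* call without naive replicate 2 or 3 or day 12 replicate 3 (0.0601 to 0.0642). In 3-month-old females the *Ccl9* call was lost without naive replicate 4 (0.0708), and the *Ccl6* call without naive replicate 1, 2 or 3, day 12 replicate 1, 2 or 3, or day 28 replicate 2 or 3 (0.0512 to 0.123). Calls were gained too. Here and below, the share of all genes called with 1 library left out is not given, and such gains are not read as results about the members. Without day 12 replicate 2 of 9-month-old males, which held 120 CPM of *Ccl2*, 9.38 of *Ccl7* and 206 of *Ccl5*, that group had *Ccl2* at 4.75 (adjusted p = 0.0223), *Ccl5* at 6.28 (0.000677) and *Ccl9* at -2.65 (0.0224), and without day 28 replicate 2 *Ccl5* had an adjusted p of 0.0298. *Ccl6* passed in 9-month-old females without naive replicate 1 (0.0326) or day 12 replicate 1 (0.00483), and *Ccl12* passed in 18-month-old males without day 12 replicate 3 (2.46, 0.00973). With the library of 2 day labels placed at day 12, *Ccl8* and *Ccl6* remained called in 18-month-old males, and *Ccl2* (0.0538), *Ccl7* (0.0896), *Ccl5* (0.181) and *Ccl9* (0.154) were not.

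The 18-month-old females at day 12 stood out for spread. Replicates 1 and 2 held 94.5 and 147 CPM of *Ccl2*, 2.61 and 44.1 CPM of *Ccl7*, 0 and 7.1 CPM of *Ccl8* and 204 and 223 CPM of *Ccl5*. Replicates 3 and 4 held 1230 and 4340 CPM of *Ccl2*, 870 and 3280 CPM of *Ccl7*, 554 and 56.1 CPM of *Ccl8* and 4310 and 1750 CPM of *Ccl5*. *Ccl6* had the inverse order, at 494 and 518 CPM in the first pair and 244 and 252 CPM in the second. The first pair was collected on day 1 and the second on day 2, so that within this group collection day and chemokine level cannot be told apart. Summed microglia markers were 31600 and 27200 CPM in the first pair and 13600 and 13300 CPM in the second, summed T and NK cell markers 1.57 and 40.1 CPM against 1060 and 463 CPM, and summed monocyte markers 10.4 and 8.06 CPM against 178 and 1090 CPM. The part of these in the chemokine values was not tested. Replicate 4 alone held 19900 CPM of *Ccl12* and 4550 CPM of *Ccl4*, the highest of the 62 libraries for both.

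A contrast averaged over the 6 age-sex groups, in 1 fit over all 62 libraries and added after the data were seen, called 7 of 9 members at day 12 beside 7.44% of all genes. The fold changes on the log2 scale were 6.83 ± 0.73 for *Ccl8*, 5.01 ± 0.78 for *Ccl7*, 4.67 ± 0.43 for *Ccl5*, 3.92 ± 0.44 for *Ccl2*, 1.63 ± 0.27 for *Ccl12*, -1.99 ± 0.13 for *Ccl6* and -2.01 ± 0.17 for *Ccl9*. *Ccl4* at 1.59 ± 0.33 (adjusted p = 0.104) and *Ccl3* at 0.26 ± 0.17 (adjusted p = 1) did not pass. The difference of day 12 from naive in mean log2 CPM was also taken within each collection day, on uncorrected counts. Some groups then held 1 library per time. The difference was positive in 6 of 6 age-sex groups on both days for *Ccl5*, *Ccl7* and *Ccl8*. For *Ccl2* and *Ccl12* it was positive in 5 of 6 on day 1, with lowest values of -0.29 and -0.74, and in 6 of 6 on day 2. It was negative in 6 of 6 on both days for *Ccl6*. For *Ccl9* it was negative in 5 of 6 on day 1 and 6 of 6 on day 2.

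Day 28 was compared with naive to ask which differences were present at the later time. *Ccl8* rose in 3-month-old females, where naive libraries at 0 to 2.1 CPM stood against 81.9, 227, 441 and 636 CPM (8.8 ± 0.99, adjusted p = 0.00295), and this call held without any 1 library. *Ccl12* rose in 3-month-old males, from 631, 1280 and 1450 CPM to 3560, 4890 and 5180 CPM (2.02 ± 0.25, adjusted p = 0.00996), and lost its call without day 28 replicate 2 (adjusted p = 0.0539). These were the 2 calls among 54 values. They made up 1 of 9 members in 3-month-old females (0.378% of all genes) and 1 of 9 in 3-month-old males (0.647%), and 0 of 9 were called in 9-month-old females (0.452%), 9-month-old males (0.129%), 18-month-old females (0%) and 18-month-old males (0.588%). At an unadjusted p under 0.05, 22 of the 54 values passed. The same rule passed 307 to 428 of 11124 to 11630 genes per group, and DESeq2 called 4 values.

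*Ccl8* at day 28 was at 14.7 CPM or more in all 21 libraries (median 249, highest 636), against a naive median of 2.1 CPM and a naive maximum of 65.8 CPM. Naive and day 28 values did not overlap in 4 of 6 age-sex groups. They overlapped in 3-month-old males (highest naive 65.8 CPM, lowest day 28 14.7 CPM) and in 9-month-old males (53.3 and 39.9 CPM). In 18-month-old males 1.24, 3.54, 11.3 and 16.3 CPM stood against 53.5, 135, 268 and 451 CPM with an adjusted p of 0.051, which fell to 0.0264 without day 28 replicate 4, to 0.026 without naive replicate 3 and to 0.0422 without naive replicate 4. In 18-month-old females 0, 0 and 3.21 CPM stood against 200, 249 and 301 CPM with no overlap, yet the log2 fold change of 7.68 ± 2.18 had an adjusted p of 0.954. In 9-month-old females *Ccl8* (5.38, adjusted p = 0.0328) and *Ccl2* (2.82, 0.0112) passed without day 28 replicate 1, and *Ccl9* (-1.99, 0.0373) passed without naive replicate 1. In 3-month-old males *Ccl5* (2.18, 0.00549) passed without day 28 replicate 3 and *Ccl9* (0.0275) without day 12 replicate 2.

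*Ccl6* and *Ccl9* were lower at day 28 than naive with no overlap in all 6 age-sex groups, at log2 fold changes of -0.74 to -1.56 and -0.99 to -1.85, and neither was called in any (smallest adjusted p 0.165 and 0.0872). *Ccl6* had a median of 429 CPM at day 28, between 218 CPM at day 12 and 922 CPM in naive, and *Ccl9* had 110 CPM between 68.1 and 332 CPM. *Ccl2* (log2 fold changes of 0.57 to 2.68) and *Ccl5* (0.45 to 3.03) were positive in all 6 groups without a call, and *Ccl7* ran from -0.49 to 5.31. Groups that did not overlap made up 5.96%, 9.9%, 7.35%, 13.1%, 10.6% and 4.91% of all genes with day 28 higher and 4.13%, 8.39%, 5.34%, 14.2%, 7.05% and 4.08% with day 28 lower, in the order 3-month-old females and males, 9-month-old females and males, 18-month-old females and males. In the averaged contrast 1 of 9 members was called (2.26% of all genes), *Ccl8* at 5.3 ± 0.69 (adjusted p = 2.34e-06).

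Between day 28 and day 12 none of the 54 values was called by edgeR within an age-sex group. The background was 0.0539%, 0.341%, 0.417%, 0%, 0% and 0.623% of all genes in the same order. At an unadjusted p under 0.05, 13 values passed, beside 110 to 579 of 11124 to 11630 genes per group. DESeq2 called 1, *Ccl7* in 18-month-old males (adjusted p = 0.00397). *Ccl5* had log2 fold changes of -1.63 to -3.38 and *Ccl7* of -1.41 to -4.84, all negative. The closest to a call were *Ccl5* (adjusted p = 0.0559) and *Ccl7* (0.0566) in 18-month-old males, *Ccl7* in 3-month-old males (0.0603) and *Ccl5* in 3-month-old females (0.0766). *Ccl5* passed in 3-month-old females without naive replicate 1 or 2 or day 28 replicate 4 (0.00243 to 0.0264), in 3-month-old males without day 28 replicate 3 (0.00143), and in 18-month-old males without any 1 of the 4 naive libraries (0.00114 to 0.0487). *Ccl7* passed in 3-month-old males without day 12 replicate 4 (0.0173) or day 28 replicate 2 (0.00204), in 9-month-old females without day 28 replicate 3 (0.00388), and in 18-month-old males without naive replicate 2 (0.0161) or 3 (0.0317) or day 12 replicate 3 (9.09e-05). *Ccl2* passed without day 28 replicate 3 in 9-month-old females (0.0346) and without day 12 replicate 3 in 18-month-old males (0.00695). The averaged contrast called *Ccl7* at -3.21 ± 0.61 (adjusted p = 0.00772) and *Ccl5* at -2.78 ± 0.34 (adjusted p = 0.000274), 2 of 9 members beside 1.62% of all genes. *Ccl12* differed by 0.02 ± 0.24 between the 2 times, and its median was 3090 CPM at day 12 and 3700 CPM at day 28.

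Sex was tested as the difference between the male and the female change from naive, at an adjusted p under 0.1 in edgeR's quasi-likelihood test. No member was called at any age or day (0 of 54 values, beside 0.0417% and 0.00833% of all genes at 3 months for day 12 and day 28, 0.00809% and 0% at 9 months, and 0% and 0% at 18 months). Unadjusted p-values were under 0.05 for 8 values, beside 530 to 1113 of 11907 to 12364 genes per comparison. DESeq2 called 1. That value was *Ccl9* at 18 months and day 12, where the male change was lower by 2.4 on the log2 scale (SE 0.64, adjusted p = 0.601 in edgeR and 0.0971 in DESeq2). Male libraries held 224 to 327 CPM in naive and 26.4 to 77.7 CPM at day 12, beside 171 to 210 and 50.5 to 258 CPM in females. Without day 12 replicate 3 of the females the same difference passed in edgeR (-2.69, adjusted p = 0.0654). At 3 months the *Ccl7* change was 4.83 ± 1.6 higher in males at day 12 (adjusted p = 0.399) and the *Ccl8* change was lower by 4.84 (SE 1.8, adjusted p = 0.43), and with these errors an equal change in both sexes was not shown either.

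Age was tested at each day within each sex, 9 or 18 against 3 months, at an adjusted p under 0.1. Of 107 values, 6 were called. At an unadjusted p under 0.05, 28 passed, beside 348 to 1414 of 10345 to 10966 genes per comparison, and DESeq2 called 12. In day 12 females *Ccl7* was higher at 9 months (273, 416 and 436 CPM) than at 3 months (12.6, 19.6, 23.5 and 55.3 CPM), by 3.71 ± 0.42 on the log2 scale (adjusted p = 0.000579). *Ccl2* was higher in the same comparison (760, 976 and 1020 against 74.2, 191, 307 and 396 CPM, 1.89 ± 0.43, adjusted p = 0.0414). These were 2 of 9 members beside 2.97% of all genes, and the *Ccl2* call was lost without day 12 replicate 1 of the 3-month-old (0.135) or replicate 2 of the 9-month-old females (0.148). *Ccl3* passed in it without replicate 3 of the 3-month-old females (-1.18, 0.0441).

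In day 28 females *Ccl9* was lower at 9 months (65.5, 77.7, 92.1 and 110 CPM) than at 3 months (151, 154, 178 and 191 CPM), by 0.96 ± 0.17 on the log2 scale with an adjusted p of 0.0622. It was 1 of 9 members beside 0.0284% of all genes, and leaving out any 1 of 6 of the 8 libraries ended the call (0.103 to 0.388). At 18 months *Ccl9* held 38.3, 81.8 and 88.7 CPM (-1.28 ± 0.24, adjusted p = 0.0167) and *Ccl7* 69.7, 73.5 and 88.4 CPM against 4.43, 5.3, 7.87 and 24 CPM (2.87 ± 0.46, adjusted p = 0.0194). These were 2 of 9 members beside 0.862% of all genes, a share of the fit with no library left out. The groups did not overlap in 6 of 9 members there, beside 4.81% of all genes with 18 months higher and 4.74% lower. Without replicate 4 of the 3-month-old day 28 females *Ccl2* (2.03, adjusted p = 0.0253), *Ccl12* (1.71, 0.000308) and *Ccl5* (1.76, 0.000308) passed as well, without replicate 1 *Ccl7* did not (0.11) and *Ccl12* did (1.2, 0.0896), and without replicate 4 of the 18-month-old females *Ccl6* passed (-0.9, 0.052). With the library that was left out for its sex-linked transcripts put back, *Ccl7* (4.7, adjusted p = 0.333) and *Ccl9* (-1.09, 0.111) were no longer called and *Ccl12* was (1.42, 0.0673).

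Among naive males *Ccl7* was higher at 18 months (7.67, 11.1, 15.6 and 41.1 CPM) than at 3 months (0.844, 1.29 and 2.8 CPM), by 3.45 ± 0.62 (adjusted p = 0.0179), 1 of 9 members beside 0.13% of all genes. Without any 1 of the 3-month-old libraries or replicate 2 of the 18-month-old ones it was not called (0.103 to 0.27), and without replicate 1 *Ccl5* passed (1.53, 0.000739). Between 9- and 3-month-old naive males no member was called (0% of all genes). With replicate 1 of the 2 naive libraries at 9 months left out, log2 fold changes of *Ccl3*, *Ccl4*, *Ccl5*, *Ccl6*, *Ccl9* and *Ccl12* ran from -2.51 to -0.61. With replicate 2 left out, *Ccl7* was at 5.35. The lone library is assumed there to vary like the other group, and no call is read from these fits. Between 18- and 3-month-old day 12 males 0 members were called (0.0839%), and *Ccl2* (2.07, 0.000328), *Ccl7* (3.7, 0.00318) and *Ccl12* (1.43, 0.00362) passed without replicate 3 of the 18-month-old males. In the other 6 age comparisons 0 members were called, beside 0% to 0.0192% of all genes.

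The receptors and the rest of the chemokine family gave the setting of these ligands. Of 15 CC and atypical receptors all were in the table, 3 to 6 were tested per day comparison, and calls against naive were 1 rise (*Ccr7*, 0 to 3.25 CPM at day 12 in 18-month-old males, adjusted p = 0.0496) and 1 fall (*Ccr1*, the receptor of the *Ccl6* and *Ccl9* products, from 36.4 to 2.33 CPM at day 28 in 18-month-old males, -3.77 ± 0.7, adjusted p = 0.0393). *Ccr2*, a monocyte receptor, had medians of 0.997, 5.4 and 0.829 CPM in naive, day 12 and day 28 libraries. Of the other 10 CC chemokines, 7 were at 0 in all 19 naive libraries, 0 were called in any day comparison against naive by edgeR, and *Ccl24*, an eosinophil attractant, had the highest naive median at 10.2 CPM.

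Of 13 CXC, CX3C and XC chemokines, 6 or 7 were tested per group. At day 12 the calls were 4, 4, 5, 2, 0 and 5 in the order 3-month-old females and males, 9-month-old females and males and 18-month-old females and males, and all were higher. *Cxcl9*, an interferon-induced attractant of T cells, had medians of 0, 506 and 163 CPM in naive, day 12 and day 28 libraries. *Cxcl13*, the attractant of B cells, had 11.1, 2340 and 1960 CPM, and *Cxcl16* 113, 650 and 323 CPM. These 3 had their highest median at day 12, as *Cxcl10* (64, 627 and 158 CPM) and *Cxcl11* (0, 17.1 and 5.66 CPM) did. Among the members so did *Ccl8*, *Ccl5*, *Ccl2*, *Ccl7* and *Ccl4*, and *Ccl3* by a small margin (194, 212 and 197 CPM).

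Likeness over all 62 libraries was measured as Pearson's r of log2 CPM against 13583 other genes, a description in which libraries share days and groups. *Ccl8* was most like *Cxcl9* (0.885), *Cd74* (0.867) and *Ly6i* (0.864), and *Ccl5* most like *AW112010* (0.931), *Plaat3* (0.908) and *Cxcl16* (0.904). *Ccl6* had *Klk8* (0.935), *Hpgd* (0.928) and *Ecscr* (0.924), and *Ccl9* had *Ccl6* (0.916), *Hpgd* (0.905) and *Jam2* (0.894). *Ccl2* followed *Ifi211* (0.905), *Ifi204* (0.884) and *Tspo* (0.879), and *Ccl7* followed *Cenpe* (0.833), *Ch25h* (0.816) and *Ccl2* (0.814). For *Ccl12* the values were lower, with *Cox6a2* (0.76), *Rps18* (0.757) and *Ccl2* (0.754). *Ccl3* and *Ccl4* were each other's nearest gene (0.748), followed by *Afp* (0.664) and *Srpr* (0.585) for *Ccl3* and by *Cox6a2* (0.704) and *Slfn2* (0.696) for *Ccl4*.

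Markers of other cells moved with day and are given beside these results. Microglia markers summed to 26400 to 45600 CPM in naive, 8380 to 31600 at day 12 and 15900 to 41200 at day 28, and 3, 3, 3, 1, 0 and 5 of 8 fell at day 12 in the order above, *P2ry12* and *Siglech* among them. T and NK cell markers (11 of 12 in the table) summed to 0 to 386 CPM in naive (median 1.69), 1.57 to 1060 at day 12 (median 261) and 20.8 to 498 at day 28 (median 136), and 2, 5, 4, 5, 0 and 1 rose at day 12. *Cd3d* was at 0 in 14 of 19 naive and 1 of 22 day 12 libraries. Monocyte markers (6) had medians of 12, 67.2 and 8.15 CPM, with *Ly6c2* at 0 in 11 naive and 3 day 12 libraries, and 1 rose, in 3-month-old males. Border macrophage markers (6) had summed medians of 329, 240 and 261 CPM, and 2, 1, 0, 1, 0 and 1 fell at day 12 in the order above. Falls were of *Pf4* (-4.63 ± 0.71 in 3-month-old females, -6.3 ± 1.11 in 3-month-old males and -6.61 ± 1.41 in 18-month-old males), *Mrc1* (-5.17 ± 0.85 in 3-month-old females) and *Cd163*, which was at 0 in 21 of 22 day 12 libraries. *Pf4* had a median of 93.5 CPM in naive and 2.08 CPM at day 12, while *Ms4a7*, the most abundant of the list, had 134 and 206 CPM. The neutrophil markers (4) had a median of 0 CPM at each time. B cell (4), photoreceptor (4) and Muller glia markers (4) had 0 calls at day 12. The part of these in the chemokine values was not tested.

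Relations between members and marker lists were computed across libraries of 1 day, 6 in all, on log2 CPM, with 100000 two-sided permutations and adjustment over the 6. At day 28 *Ccl5* went with the mean of the T and NK cell markers over 21 libraries (Pearson's r = 0.723, permutation p = 0.00022, adjusted 0.00132, and Spearman's rho = 0.747, p = 0.00017, adjusted 0.00102). It was 0.68 without the 2 libraries farthest from the median of the markers, 0.658 in the 8 libraries of collection day 1 and 0.777 in the 13 of day 2. At day 12, over 22 libraries, r was 0.6 (permutation p = 0.00493, adjusted 0.0148) but rho was 0.287 (p = 0.196, adjusted 0.317), and r was 0.152 without the 2 farthest libraries, so that this relation rests on those 2, which are replicates 1 and 2 of the 18-month-old females. It was 0.727 within day 1 and 0.185 within day 2. Age and sex groups are pooled in these values.

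The other 4 relations did not pass. *Ccl8* and border macrophage markers had r = -0.23 and rho = 0.176 at day 12 (permutation p = 0.301 and 0.432) and r = 0.0957 and rho = 0.256 at day 28 (0.683 and 0.264). *Ccl4* and the immediate early genes, which respond to cell handling as well as to stimulation, had r = 0.22 and rho = 0.264 at day 12 (0.322 and 0.236) and r = 0.316 and rho = 0.287 at day 28 (0.16 and 0.205). Adjusted values ran from 0.317 to 0.683. Without the 2 farthest libraries r was 0.159 and 0.0682 for *Ccl8* and 0.347 and 0.199 for *Ccl4*, and within collection days it ran from -0.44 to 0.557.

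**Figure D4:**
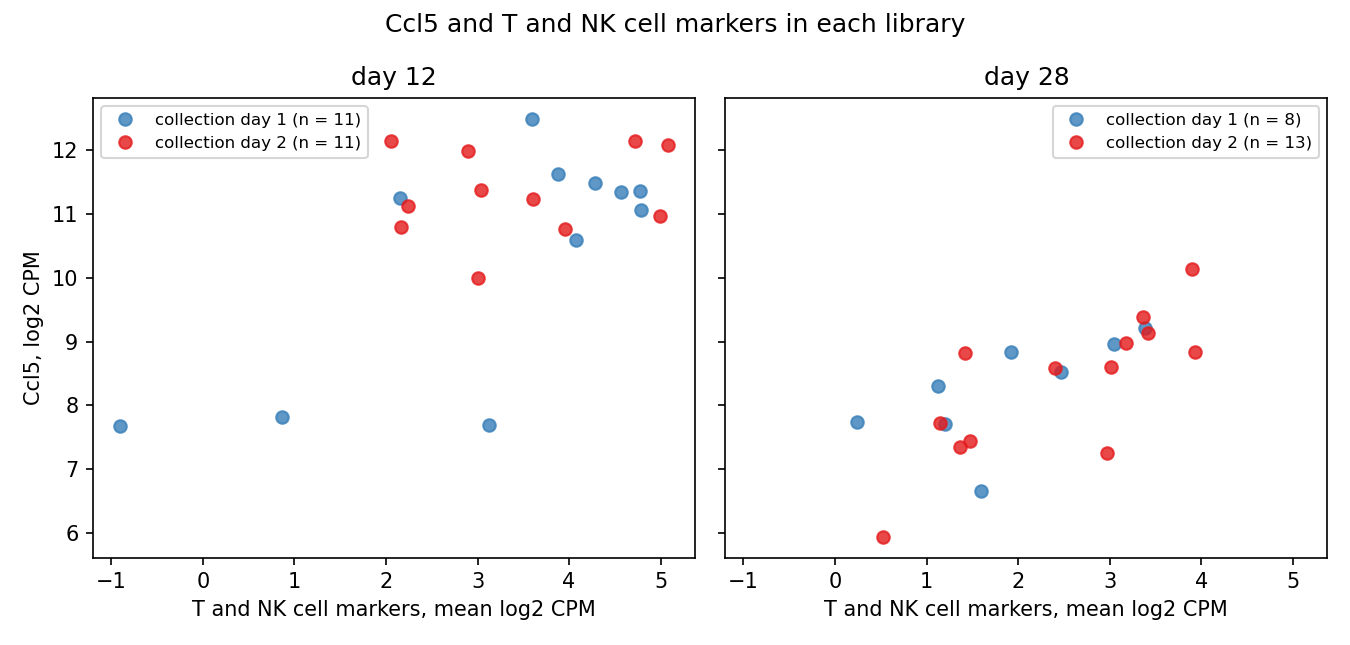
Ccl5 (log2 CPM, vertical axis) against the mean log2 CPM of T and NK cell markers (horizontal axis) in each library at day 12 (left, 22 libraries) and day 28 (right, 21 libraries), coloured by collection day. Points rise together at day 28 (r = 0.723), and at day 12 the slope rests on the 2 libraries with the lowest marker level (r = 0.6, and 0.152 without them).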

How the data were processed

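RNA-seq was performed on retinal microglia sorted from single retinas, SMART-Seq v4 and Nextera XT libraries being read on a NextSeq 500. Per the labels and the study's methods, the authors demultiplexed with bcl2fastq 2.20, aligned single-end reads to mm10 with STAR 2.7.8a, counted reads per refGene gene with featureCounts, and adjusted the deposited counts for collection day with ComBat_seq in R 4.2.2. All libraries of 1 collection day were made into cDNA together. A table of uncorrected counts served as an alternative. Columns without a sample numbered 0.

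From the corrected counts, 62 libraries were analysed. Counts were scaled by the trimmed mean of M-values in edgeR 4.0.16 (R 4.3.3), giving CPM, and log2 CPM with a prior count of 2. For days, 1 quasi-likelihood fit per age and sex was tested with glmTreat against a log2 fold change of 1 (adjusted p under 0.05). Sex by day and age were tested with glmQLFTest (adjusted p under 0.1). Genes were filtered with filterByExpr, and p-values were adjusted by Benjamini-Hochberg over all genes tested. The edgeR fit was tested on simulated data for 1 comparison each of day, age and sex by day. DESeq2 1.42.0, other scalings, no filter, collection day in the model, a replicate block, 1 fit over all libraries, other placements of the 2 doubtful libraries and leaving out each library were the alternatives. The precision of a low value is set by its depth (3 counts as the floor), which covers counting error only. Of each marker list at most 3 called genes per comparison, with groups that did not overlap, were eligible to be named, and other genes named by median were chosen after their values were seen. The 3 genes most correlated with each member were named. The members, lists and tests were chosen with earlier results of these data known. Relations used scipy 1.17.1. Replicate 1 of the 9-month-old day 28 males, whose sex-linked transcripts went against its label, was not used here. The result for 1 receptor gene is not reported here.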

Additional observations from a re-analysis of the deposited data

Results flagged for a closer look

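In 8 of 81 sets of 4 libraries, 1 library stood apart from the other 3 by Dixon's test at 95%, taken on CPM. With normally distributed values chance flags about 1 in 20 sets. CPM values need not be normal and the sets share libraries, so that no excess over chance is read from these 8. *Ccl7*, a Ccr2 ligand, was at 212 CPM in replicate 3 of the 9-month-old day 28 females, beside 2.12 to 13.3 CPM in the others. *Ccl8* was at 1430 CPM in replicate 2 of the 3-month-old day 12 females (others 463 to 551 CPM) and at 554 CPM in replicate 3 of the 18-month-old day 12 females (others 0 to 56.1 CPM). Replicate 4 of the same 18-month-old group held 19900 CPM of *Ccl12* (others 2500 to 4410 CPM) and 4550 CPM of *Ccl4* (others 474 to 577 CPM). *Ccl4* was also at 905 CPM in replicate 2 of the 3-month-old day 12 males (others 246 to 341 CPM). Replicate 4 of the 3-month-old naive females was low for both *Ccl12* (468 CPM, others 1220 to 1290 CPM) and *Ccl6* (535 CPM, others 863 to 926 CPM).

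Replicate 1 of the 18-month-old day 28 females, as labelled, used in no comparison above because its sex-linked transcripts went against its label, held 6 members above the highest of the 19 naive libraries. *Ccl2* was at 1680 CPM (highest naive library 144 CPM), *Ccl7* at 863 CPM (72.1 CPM), *Ccl5* at 2780 CPM (329 CPM) and *Ccl8* at 198 CPM (65.8 CPM). *Ccl12* at 5760 CPM (5450 CPM) and *Ccl4* at 752 CPM (728 CPM) were only just above it. Replicate 1 of the 9-month-old day 28 males had the opposite mismatch, so that the age, sex and group behind these values are uncertain.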

How the results depend on the processing

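The number of members called at day 12 against naive (20) ran from 16 to 28 over the alternatives, and from 18 to 23 with 1 library left out. For day 28 against naive (2) the count was 4 with DESeq2, 11 with no filter on low counts, 12 with the plain quasi-likelihood test and 1 in the fit over all libraries (1 to 4 with 1 library left out). For day 28 against day 12 (0) it was 1 with DESeq2, 5 with no filter and 9 with the plain quasi-likelihood test (0 to 2). For sex by day (0) it was 1 with DESeq2 and 11 with no filter (0 to 1). For age (6) it was 12 with DESeq2, 10 with no filter and 0 in the fit over all libraries. With 1 library left out the age count fell to 5 at the lowest, and its upper end came from a fit that left 1 naive male library at 9 months. The cause was not tested. The share of all genes called under each alternative is not given here, so that these counts are not read as results about the members. Deviations of same-numbered libraries from the group means had a mean correlation of -0.0114 over 464 pairs, beside 0.00408 over 1348 other pairs. These values came from counts already corrected for collection day. Replicate 1 libraries were all collected on day 1 and replicate 4 libraries on day 2. The number therefore carries collection day, and the correlation cannot show what such libraries shared before correction. With the replicate block the counts were 18 for day 12, 2 for day 28, 1 for day 28 against day 12, 0 for sex by day and 8 for age. *Ccl5* and T and NK cell markers at day 12 did not pass without the 2 farthest libraries (0.152), within collection day 1 (0.727) or day 2 (0.185), nor at day 28 within day 1 (0.658, 8 libraries). The sign of r turned for *Ccl8* and border macrophage markers at day 12 without the 2 farthest libraries (0.159) and at day 28 within day 1 (-0.0504), and for *Ccl4* and immediate early genes at day 12 within day 1 (-0.188). Groups held 2 to 4 libraries, and *Ccl7* and *Ccl8* were at or under the floor of 3 counts in some naive libraries.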
